A study of Mus musculus with 69 samples.

Results

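Levels of 9 transcription factor genes of the pituitary and its gonadotropes were measured by RNA-seq in female mice that carry a form of Zeb1 resistant to microRNAs of the miR-200 family. The genes were Nr5a1, Egr1, Pitx1, Lhx3, Isl1, Gata2, Otx1, Nr0b1 and Six6. They were taken by symbol from 55964 gene IDs in the count tables, with no filter on their values, and all 9 were found. The set was chosen with earlier results of these data known.

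Mice were wild type (WT), heterozygous (Zeb1_200H, with 1 altered allele) or homozygous (Zeb1_200M, with 2) for a knock-in that removed the miR-200 sites from Zeb1 without a change to its coding sequence. All were females on a C57BL/6J background, the knock-in being present in every cell of the body and maintained in lines from more than a single embryonic stem cell clone, and all tissues were taken in proestrus. Pituitary, hypothalamus and ovary were collected from a young cohort of virgin mice (8 to 12 weeks of age) and from an older cohort (28 to 36 weeks of age) whose females had already been bred in a trial. Each tissue and cohort held 3 or 4 libraries per genotype, 69 in all. The authors state that replicates came from different mice, so p-values within a tissue measure the spread between the mice of these libraries. The labels number the libraries without naming the animals.

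Gonadotropes are the pituitary cells that make luteinizing hormone (LH) and follicle-stimulating hormone from a common subunit, Cga, and the separate beta subunits Lhb and Fshb. Gonadotropin-releasing hormone from the hypothalamus acts on its receptor, Gnrhr, and induces the immediate early gene Egr1 within the gonadotrope. EGR1 then acts together with SF1, the product of Nr5a1, and with PITX1 on the Lhb promoter. LHX3 and ISL1 are LIM homeodomain proteins needed for pituitary development, GATA2 acts in gonadotropes and thyrotropes, OTX1 is an orthodenticle homeodomain protein of forebrain and pituitary, NR0B1 (DAX1) is a repressor of SF1, and SIX6 is a homeodomain protein of pituitary, hypothalamus and retina. ZEB1 is a zinc finger repressor that binds E-boxes, and it and the miR-200 family repress each other.

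The mature sequences of the family show the letters that the knock-in took away from Zeb1, and the same letters were looked for in the members. They are given in RefSeq's form for GRCm38 with the seed, bases 2 to 8, in capitals.

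miR-200b-3p: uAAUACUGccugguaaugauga

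miR-200c-3p: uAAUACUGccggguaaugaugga

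miR-429-3p: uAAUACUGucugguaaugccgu

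miR-200a-3p: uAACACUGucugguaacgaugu

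miR-141-3p: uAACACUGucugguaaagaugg

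The first 3 share the seed AAUACUG and the other 2 share AACACUG. Matches to either seed, CAGTATT and CAGTGTT, were searched in the 3′ UTR strand of each member. Among the 9 members, 2 held a match, Pitx1 and Gata2, each a single time. Such a match was also found in 22.2% of 3400 genes with a 3′ UTR within 25% of the length of that of Pitx1 and in 29.5% of 3597 genes for Gata2. The other 7 members had none of these letters in their 3′ UTRs. The windows of 30 bases around both matches (GRCm38, transcribed strand, match in capitals) were as follows.

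Pitx1, chr13:55825674-55825703, minus strand: gcggggagaagcCAGTGTTcggagaagatg

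Gata2, chr6:88206856-88206885, plus strand: gagaagaatcggCAGTATTttctgttttta

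The promoter of Lhb is the place where several members meet. The 250 bases before its start in RefSeq (GRCm38, chr7:45420696-45420945, plus strand) are shown with matches to 4 sets of letters in capitals, searched on both strands.

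Lhb promoter: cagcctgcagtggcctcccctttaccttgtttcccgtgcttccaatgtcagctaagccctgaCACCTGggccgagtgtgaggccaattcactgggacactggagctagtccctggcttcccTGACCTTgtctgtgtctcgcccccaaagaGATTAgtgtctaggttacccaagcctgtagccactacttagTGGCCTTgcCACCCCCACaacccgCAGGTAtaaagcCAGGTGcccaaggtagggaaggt

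In order, the capitals mark a ZEB E-box (CAGGTG, on the minus strand) at -188, an SF1 element (AAGGTCA, minus strand) at -129, a PITX element (GATTA) at -100, an SF1 element (AAGGCCA, minus strand) at -59, an EGR element (GNGGGGGNG, minus strand) at -50, and ZEB E-boxes CAGGTA at -35 and CAGGTG at -23, counted from the start. None of these matches overlapped another. Of 32851 mouse promoters of the same length, 9.09% held either SF1 form, 17.0% the EGR letters, 19.8% the PITX letters and 25.4% a ZEB E-box, CAGGTA or CAGGTG. All of SF1, EGR and PITX stood together in 58 promoters (0.177%), and 3 or more ZEB E-boxes in 203 (0.618%). A match is a description of letters and not a shown site.

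Promoter sequence was at hand for Lhx3, Isl1, Gata2, Nr0b1 and Six6. A ZEB E-box lay at -214 in 1 of 2 Lhx3 promoters and at -248 in that of Nr0b1, and these windows are printed with the E-box in capitals. The other Lhx3 promoter and those of Six6, Isl1 and Gata2 held no such letters.

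Lhx3, chr2:26208446-26208475, minus strand: gctactctgtaaCAGGTAaaggaaggtcca

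Nr0b1, chrX:86191525-86191554, plus strand: ccCAGGTAgaggcaggaggggtggagtgaa

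In GRCm38, Nr5a1 (ENSMUSG00000026751) lies on chr2:38692656-38714542 and Lhx3 (ENSMUSG00000026934) on chr2:26200212-26208289, both on the minus strand. Pitx1 (ENSMUSG00000021506) is on chr13:55825051-55836192 and Isl1 (ENSMUSG00000042258) on chr13:116298281-116309689, minus strand, and Otx1 (ENSMUSG00000005917) on chr11:21994764-22002897, minus strand. The plus strand holds Gata2 (ENSMUSG00000015053, chr6:88193891-88207032), Six6 (ENSMUSG00000021099, chr12:72939892-72944899), Egr1 (ENSMUSG00000038418, chr18:34859823-34864984) and Nr0b1 (ENSMUSG00000025056, chrX:86191764-86195947). Nr5a1, Lhx3, Pitx1 and Six6 overlap genes on the other strand (Nr5a1os, Gm27196, Gm47071 and 4930447C04Rik), and Pitx1 also overlaps the lincRNA Gm28760 on its own strand. The older cohort was sequenced without strand, so reads of those 4 members and of their antisense neighbours cannot be told apart there.

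Libraries held 3321845 to 14655095 reads in genes, with the fewest in young hypothalamus (3321845 to 5143128 reads). Zeb1 itself was higher in both mutant genotypes in pituitary. In the young cohort it rose by 0.52 ± 0.06 in 200M (log2 fold change ± SE, adjusted p = 2.39e-05, edgeR) and by 0.44 ± 0.07 in 200H (adjusted p = 0.000895), and in the older cohort by 0.55 ± 0.09 and 0.33 ± 0.08. Prl, the prolactin of lactotropes, was at 28590 CPM (counts scaled to the library's total in units of 1e6) or more in every pituitary library and at 24.7 CPM or less in every other library. In every young hypothalamus the hypothalamic markers Pmch, Avp and Oxt were at 50.4, 35.7 and 12.4 CPM or more. In every young pituitary library they were at 0.258, 1.43 and 2.93 CPM or less. Agrp, an arcuate marker, was near 0 in young hypothalamus, at 2.03 CPM or less. Among the young hypothalami, 200M replicate 1 stood apart, with the pituitary hormone subunits Cga at 19.4 CPM and Tshb at 19.6 CPM but Prl and Gh at 0.277 CPM each. Prl also moved with genotype in pituitary, where it fell by 1.61 ± 0.12 (log2) in young 200M and by 1.66 ± 0.13 in older 200M. The sum of 15 marker genes of other pituitary cell types, most of it hormone mRNA, ranged from 162400 to 186000 CPM in young WT and from 67530 to 87120 CPM in young 200M. The share of this in the results below was not tested. In bulk tissue, fewer cells of a type and less RNA per cell cannot be told apart.

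In the pituitary, Nr5a1 was higher and Six6 lower in both mutant genotypes of both cohorts. In young 200M these were 2 of 9 members called at an adjusted p under 0.05, against 21.5% of all 18199 genes tested, and in young 200H the same 2 of 9 against 12.3%. In older 200M, Nr5a1, Gata2 and Six6 were 3 of 8 tested members called, against 21.4%, and in older 200H, Nr5a1, Lhx3 and Six6 were 3 of 8, against 12.2%. The young 200M count is near its background, and 2 or 3 calls among so few genes say nothing of the members as a set. Groups that did not overlap were found for 4 of 9 members in young 200M and 4 of 9 in young 200H, against 29.7% and 23.7% of all genes, and for 3 of 8 in older 200M and 4 of 8 in older 200H, against 31.6% and 17.5%. The median log2 fold change of the tested members was -0.19 in young 200M, where that of all genes was 0.0017, and -0.05 in older 200M, where that of all genes was -0.0127. In 200H the members' medians were -0.24 (young) and 0.21 (older), with 0.0067 and -0.0083 for all genes. Both mutant genotypes were compared with the same WT libraries, so their values are not independent of each other.

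**Figure D1:**
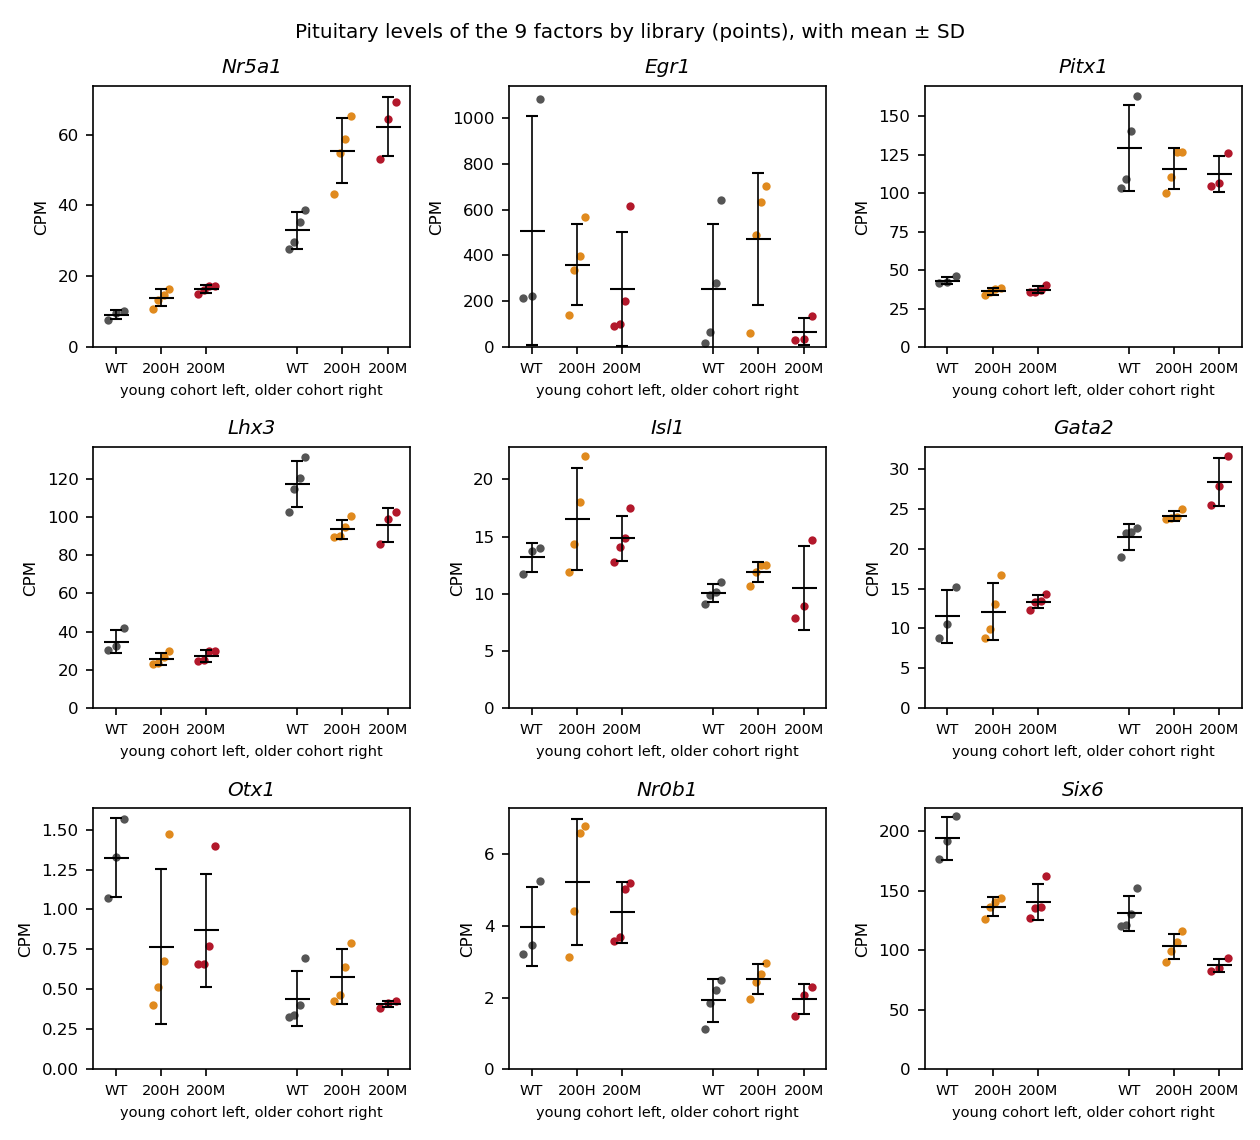
Pituitary levels of the 9 members in CPM by genotype (points, single libraries; bars, mean ± SD of 3 or 4 libraries), young cohort to the left and older cohort to the right of each panel. Every mutant library lies above every WT library of its cohort for Nr5a1 and below for Six6. The Egr1 points of the genotypes overlap, and its single libraries span 19.3 to 1084 CPM over both cohorts, both ends being WT.

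Nr5a1, which encodes SF1, the nuclear receptor that marks gonadotropes within the pituitary, stood at 9.61, 7.61 and 10.1 CPM in the 3 young WT libraries (replicates 1 and 2 and a library whose number matches no sample label, called unnumbered here). The 200H libraries held 14.8, 13.4, 16.5 and 10.8 CPM. The 200M libraries held 17.4, 16.1, 14.9 and 17.4 CPM. No mutant library reached down to the WT range, and the lowest 200H library, at 10.8 CPM, was close to the highest WT library. Nr5a1 rose 1.82-fold in 200M (log2 fold change 0.86 ± 0.14 SE, adjusted p = 0.000342, edgeR) and 1.54-fold in 200H (0.62 ± 0.17, adjusted p = 0.0297). The 200H call was lost when 200H replicate 1 or 3 or any WT library was left out, with adjusted p between 0.0523 and 0.106.

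Nr5a1 in older mice stood at 29.7, 27.8, 35.4 and 38.8 CPM in WT. It was at 58.8, 54.8, 65.2 and 43.3 CPM in 200H. In 200M it was at 53.1, 69.3 and 64.4 CPM. The groups again did not overlap. The increase was 1.90-fold in 200M (0.93 ± 0.13, adjusted p = 0.000383) and 1.69-fold in 200H (0.75 ± 0.14, adjusted p = 0.00369). Reads in the overlap with Nr5a1os were counted by strand in the young cohort and could not be in the older cohort, so levels of the cohorts are not on the same footing. The 200M change in the older cohort minus that in the young cohort was 0.02 ± 0.20 (adjusted p = 1.0).

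Six6, a homeodomain factor that is abundant in the adult pituitary, stood at 177, 213 and 192 CPM in young WT. It was at 136, 144, 126 and 140 CPM in 200H. In 200M it was at 135, 136, 127 and 162 CPM. All 8 mutant libraries lay below the lowest WT library, and the 200H and 200M libraries overlapped. Six6 fell by 0.46 ± 0.09 in 200M (adjusted p = 0.00145) and by 0.49 ± 0.08 in 200H (adjusted p = 0.00128). The reads of the young cohort were counted by strand, which keeps the opposite gene 4930447C04Rik out of these counts.

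Older WT pituitaries held 131, 152, 121 and 120 CPM of Six6. The older 200H libraries held 116, 90.3, 99.5 and 106 CPM, and the 200M libraries 93.4, 85.3 and 82.6 CPM. Both mutant groups lay below WT without overlap, 200H by a small gap. Six6 fell by 0.59 ± 0.10 in 200M (adjusted p = 0.0015) and by 0.35 ± 0.10 in 200H (adjusted p = 0.0446). The 200H call was lost with the replicate number as a block (adjusted p = 0.09) and without 200H replicate 2, 3 or 4 or WT replicate 1, 2 or 3 (0.0543 to 0.14).

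Lhx3, the LIM homeodomain factor of early pituitary development, was lower in most mutant libraries by an amount near the threshold. Young WT held 32.4, 41.6 and 30.2 CPM, 200H 22.8, 29.7, 23.6 and 26.8 CPM, and 200M 30.13, 30.01, 24.97 and 24.5 CPM. The groups did not overlap, though the highest mutant and lowest WT libraries almost touched. Lhx3 differed from WT by -0.42 ± 0.13 on the log2 scale in 200H, with an adjusted p of 0.0503. The 200M difference was -0.32 ± 0.12, with an adjusted p of 0.0719. The 200H change was called by DESeq2 (adjusted p = 0.0469) and by edgeR with DESeq2's size factors (0.0468), without a filter (0.0149), with the replicate block (0.0156), with 3 genotypes in the fit (0.0291) and without 200H replicate 2 (0.029). Under these and the other alternatives run its adjusted p reached up to 0.22. The block fit here rests on replicates 1 and 2 of each genotype. The unnumbered WT library and mutant replicates 3 and 4 have no partner in it. The 200M change passed without the unnumbered WT library, at 30.2 CPM (adjusted p = 0.045).

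Older WT held 102, 120, 131 and 115 CPM of Lhx3, 200H 89.3, 90.3, 100.3 and 94.6 CPM, and 200M 86.0, 98.8 and 102 CPM. Only in 200H did the groups stay apart, by about 2 CPM. Lhx3 fell by 0.32 ± 0.09 in older 200H (adjusted p = 0.034), a call lost without 200H replicate 1, 2 or 4 or WT replicate 2 or 3 (0.0683 to 0.0929). In older 200M it was at -0.29 ± 0.10 (adjusted p = 0.0546), and passed with the replicate block (adjusted p = 0.0241), with 3 genotypes in the fit (0.0415), without a filter (0.035) and without WT replicate 1 (-0.35, adjusted p = 0.023).

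Isl1, the other LIM factor, did not pass the test in any of these comparisons. Young WT held 11.8, 13.8 and 14.0 CPM, 200H 17.99, 11.9, 22.1 and 14.3 CPM, and 200M 14.9, 14.1, 12.8 and 17.5 CPM. The genotypes overlapped. For 200M the log2 fold change was 0.17 ± 0.14, with an adjusted p of 0.412, and for 200H 0.34 ± 0.19, with an adjusted p of 0.287. Older libraries ranged from 7.87 to 14.7 CPM, with 0.11 ± 0.21 in 200M and 0.25 ± 0.13 in 200H.

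Pitx1, which binds the Lhb and other hormone promoters with broad expression across pituitary cell types, stood at 41.7, 46.0 and 42.0 CPM in young WT. It was at 35.5, 37.6, 38.3 and 33.6 CPM in 200H, and at 40.6, 37.3, 35.7 and 35.9 CPM in 200M. The mutant libraries were all below WT, by as little as about 1 CPM. The differences of -0.19 ± 0.08 (200M, adjusted p = 0.114) and -0.24 ± 0.09 (200H, adjusted p = 0.0944) did not pass. With 3 genotypes in a joint edgeR fit the 200H value passed narrowly (-0.25, adjusted p = 0.0495). Older WT held 103 to 163 CPM and the older mutants 100.1 to 127 CPM, and the values were -0.20 ± 0.15 and -0.15 ± 0.14.

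Egr1, the immediate early factor that GnRH induces, spread widely among libraries of the same genotype. Young WT held 216, 1084 and 223 CPM, 200H 337, 139, 567 and 399 CPM, and 200M 94.0, 203, 98.8 and 617 CPM. A single library in WT and another in 200M stood far above their groups. Its log2 fold change of -1.0 ± 0.6 for 200M had an adjusted p of 0.278, and that of -0.48 ± 0.51 for 200H an adjusted p of 0.615. Single libraries decided these values. Without 200M replicate 4, the library at 617 CPM, the 200M value was -1.93 (adjusted p = 0.0132), and without WT replicate 2, at 1084 CPM, it turned to 0.20 (adjusted p = 0.841). For 200H the value turned to 0.73 without that WT library. With the replicate block it was -1.15 and was called (adjusted p = 1.05e-18). That fit rests on replicates 1 and 2 of each genotype, the library at 1084 CPM among them, and no weight is put on it.

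Older WT held 19.3, 644, 279 and 66.6 CPM of Egr1, 200H 488, 59.8, 703 and 635 CPM, and 200M 134, 36.6 and 32.1 CPM. The genotypes overlapped again, with low libraries in each. Here 200M differed from WT by -1.92 ± 0.89 on the log2 scale (adjusted p = 0.15), while 200H differed by 0.90 ± 0.83 (adjusted p = 0.54). Without WT replicate 1, at 19.3 CPM, the 200M value was -2.31 (adjusted p = 0.0474). At this spread a change of Egr1 of 2-fold could not be told from none.

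Other immediate early genes, a list of 18 such as Fos, Junb and Nr4a1, were looked at beside Egr1, which was not called in any of these comparisons. Their summed level ranged from 1523 to 3397 CPM in young WT, from 699.6 to 1207 CPM in 200H and from 601.1 to 1232 CPM in 200M. In young 200M, 8 of 14 tested fell and 0 rose (median log2 fold change -1.58), where 21.5% of all genes were called. In young 200H 3 of 14 fell and Egr3 rose, where 12.3% of all genes were called. In older 200M Btg2 fell and Egr3 rose of 18 tested (median -1.24), against 21.4% of all genes. In older 200H 0 of 18 were called by edgeR (median 0.02), against 12.2%. Btg2 fell by 1.41 ± 0.37 in young and by 1.78 ± 0.56 in older 200M. Genes of this kind are known to respond quickly to many stimuli, and what moved them here was not tested.

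**Figure D2:**
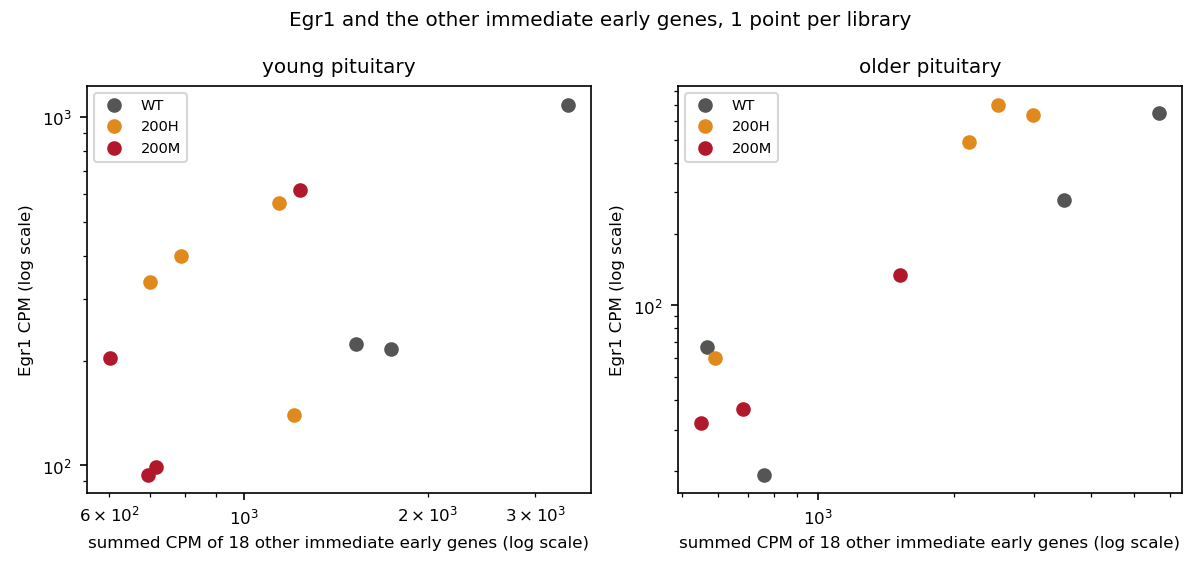
Egr1 in CPM against the summed CPM of 18 other immediate early genes in single pituitary libraries, both on log axes, coloured by genotype, young cohort (11 libraries) to the left and older cohort (11 libraries) to the right. High-Egr1 libraries are also high in the sum in the older cohort (Pearson's r = 0.897), and the young WT library at 1084 CPM holds the highest sum of its cohort, 3397 CPM.

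Across the 11 young pituitary libraries of all genotypes, log2 Egr1 and the log2 sum of the other 18 genes had Pearson's r = 0.574 (permutation p = 0.0711, adjusted over 2 relations 0.0711) and Spearman's rho = 0.536 (permutation p = 0.0932, adjusted 0.0932). Without the 2 libraries farthest from the median on the x axis, r was 0.181, so any relation there rested on them. Across the 11 older libraries r was 0.897 (permutation p = 0.00084, adjusted 0.00168) and rho 0.782 (permutation p = 0.00642, adjusted 0.0128), and r was 0.931 in the 9 libraries left without the 2 farthest. These points share the library and its depth. They also pool all genotypes, whose levels of both measures differed, and a relation within a genotype was not tested.

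Gata2 stood at 15.2, 8.85 and 10.5 CPM in young WT, at 13.1, 8.74, 16.7 and 9.90 CPM in 200H, and at 12.3, 13.4, 13.5 and 14.3 CPM in 200M. The young genotypes overlapped, with log2 fold changes of 0.22 ± 0.17 for 200M and 0.07 ± 0.23 for 200H (adjusted p = 0.396 and 0.884). Without WT replicate 1, at 15.2 CPM, the 200M value was 0.47 (adjusted p = 0.0494). Older WT held 19.0, 22.6, 22.0 and 22.1 CPM, 200H 23.7, 25.1, 24.0 and 23.9 CPM, and 200M 31.6, 25.6 and 28.0 CPM. The 3 older genotypes did not overlap, in the order WT, 200H, 200M. Gata2 rose by 0.39 ± 0.12 in older 200M (adjusted p = 0.0309), but the call was lost under DESeq2 (0.0635), without a filter (0.0571), with the block (0.0528) and without 200M replicate 1 or 3 or WT replicate 1 or 3 (up to 0.138). In older 200H the value was 0.17 ± 0.10 (adjusted p = 0.298). Thyrotropes also use GATA2. Of their genes, Trhr, the receptor for thyrotropin-releasing hormone, rose by 1.42 ± 0.22 in older 200M and by 1.13 ± 0.14 in young 200M. Tshb, the thyrotropin subunit, was tested and not called in 200M pituitary of either cohort. The part of thyrotropes in the Gata2 values was not tested.

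Nr0b1 and Otx1 were low. Nr0b1, the SF1 repressor, held 3.14 to 6.80 CPM in young and 1.11 to 2.97 CPM in older libraries, and its largest log2 fold change was 0.43 ± 0.28 (older 200H, adjusted p = 0.376). In young 200M it was at 0.14 ± 0.24 (adjusted p = 0.746). Otx1 held 1.07 to 1.57 CPM in young WT, 0.399 to 1.48 CPM in 200H and 0.659 to 1.40 CPM in 200M, from 4 to 14 reads per library, with log2 fold changes of -0.65 ± 0.40 for 200M and -0.79 ± 0.46 for 200H (adjusted p = 0.285 and 0.318). The older libraries held 2 to 6 reads of Otx1, which did not pass the filter on low counts. Changes of this size were not detectable at this depth.

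**Figure D3:**
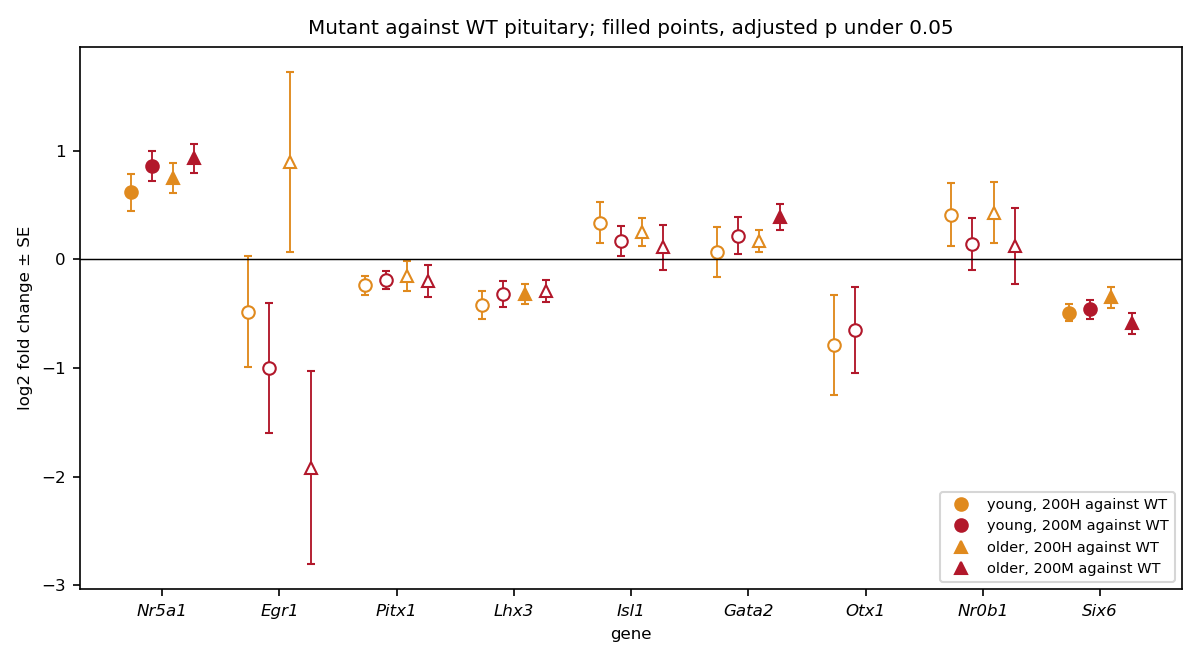
Log2 fold change (± SE) of the members in pituitary, 200M and 200H against WT in both cohorts, with filled points for an adjusted p under 0.05. Nr5a1 lies between 0.62 and 0.93 and Six6 between -0.59 and -0.35 in all 4 comparisons, and the Egr1 bars are the widest.

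The hormone subunit gene that these factors act on fell in every mutant group. Lhb held 141.4, 112 and 105 CPM in young WT, 57.1, 69.5, 63.2 and 68.5 CPM in 200H, and 33.1, 49.6, 34.9 and 28.9 CPM in 200M. It fell 3.21-fold in young 200M (-1.68 ± 0.14, adjusted p = 1.31e-06) and 5.03-fold in older 200M (-2.33 ± 0.25, adjusted p = 4.51e-05). In 200H it fell by 0.88 ± 0.11 (young) and 1.04 ± 0.20 (older). In the same libraries, Nr5a1 rose and Pitx1 and Egr1 did not pass the test as run, though young Pitx1 was below WT in every mutant library. Cga fell by 0.66 ± 0.08 in young 200M, 0.43 ± 0.09 in young 200H and 0.81 ± 0.11 in older 200M, with -0.58 ± 0.19 in older 200H (adjusted p = 0.0655). Fshb was at -0.12 ± 0.18 (young 200M, adjusted p = 0.688) and 0.67 ± 0.24 (older 200M, adjusted p = 0.0673), and Gnrhr at 0.20 ± 0.11 (adjusted p = 0.223) and 0.21 ± 0.18 (adjusted p = 0.454).

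Of the list of 10 gonadotrope genes, 5 of 9 tested fell and 0 rose in young 200M (Cga, Inha, Inhba, Lhb and Tgfbr3l). The median was -0.60, and 21.5% of all genes were called there. In young 200H 4 of 9 fell, where 12.3% of all genes were called. Of 8 tested in older mice, 4 fell in 200M and 3 in 200H, where 21.4% and 12.2% of all genes were called. Foxl2, a forkhead factor of the same list that drives Fshb, rose in both older genotypes, by 0.78 ± 0.22 and 0.79 ± 0.20. Inha, the inhibin alpha subunit, fell by 0.61 ± 0.11 in young and 0.69 ± 0.13 in older 200M. Tgfbr3l, an inhibin B co-receptor of gonadotropes, fell by 1.48 ± 0.09 in young and 0.73 ± 0.15 in older 200M.

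Among 18 other lineage factors of the pituitary, 16 were tested in young 200M, where Lhx4 and Tbx19 were among those that rose and Insm1, Msx1, Neurod4 and Pou1f1 among those that fell (median -0.06). In young 200H Tbx19 rose and Insm1 was among those that fell. In older 200M Foxl2, Lhx4 and Pax7 rose and Msx1 fell of 15 tested, and in older 200H only Foxl2 rose and none fell. Of all genes, 21.5% were called in young 200M, 12.3% in young 200H, 21.4% in older 200M and 12.2% in older 200H. Lhx4, the near relative of Lhx3, rose by 2.75 ± 0.67 in young and 2.08 ± 0.45 in older 200M from a low level, at most 2.07 CPM in any library. Msx1, a muscle segment homeobox repressor, fell by 0.45 ± 0.15 and 0.48 ± 0.14.

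Of 12 cofactors that the members are known to bind or work with, all tested, 2 were called in young 200M and 3 in older 200M, where 21.5% and 21.4% of all genes were. Ncoa1, a nuclear receptor coactivator, rose by 0.42 ± 0.07 in young 200M, and Sp1 fell by 0.43 ± 0.06. The same 2 genes were called in young 200H. In older 200M Ncoa1 rose (0.34 ± 0.11) and Ldb1, the LIM domain binding partner of LHX3 and ISL1, and Sp1 (-0.29 ± 0.09) fell, and in older 200H edgeR called none. Of 15 paralogs of the members, 7 were tested in young 200M, where Lhx4 was among those called, and 6 in young 200H, where Egr3 was. In older 200M 9 were tested (Egr3 and Lhx4 up) and in older 200H 8 (0 called by edgeR). The shares of all genes called in 200H were 12.3% (young) and 12.2% (older).

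Markers of other cells moved beside these results. Of 15 genes of other pituitary cell types, Crhr1 and Trhr rose and Prl fell in all 4 comparisons of a mutant with WT. In older 200M Pcsk2, Pomc and Sox9 rose as well. Between 12.2% and 21.5% of all genes were called in these comparisons. Crhr1, a receptor of corticotropes, rose by 1.09 ± 0.17 in young and 0.71 ± 0.14 in older 200M. A list of 9 genes that would mark hypothalamic tissue in the dissection summed to between 14.78 and 41.92 CPM in young WT and between 56.35 and 97.76 CPM in young 200M. Most of its members were too low to be tested, and Gal, which lactotropes and other pituitary cells also make, rose by 1.66 ± 0.25 in young and 1.20 ± 0.28 in older 200M. Rorb, taken from a list of 18 genes of hypothalamic regions, rose by 0.51 ± 0.07 and 0.61 ± 0.14. A list of 17 ovarian genes summed to 60.48 to 79.02 CPM in all pituitary libraries, with Inha its only member that fell. In older pituitary that sum of hypothalamic regions was nearly all Pomc, from 8832 to 12060 CPM in WT and from 11550 to 24670 CPM in 200M. The part of such cells in the members' results was not tested.

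Between the mutant genotypes, edgeR and DESeq2 called 0 members in pituitary. In the young cohort 8 members were tested, 0 with an unadjusted p under 0.05, against 7 called of 18271 genes (0.0383%). Of the older comparison 8 were tested, 2 with an unadjusted p under 0.05, against 18 of 14862 genes (0.121%). Nr5a1 was at 0.24 ± 0.13 (young, adjusted p = 0.872) and 0.17 ± 0.13 (older, adjusted p = 0.69) in 200M against 200H. Six6 was at 0.04 ± 0.08 and -0.25 ± 0.09 (adjusted p = 0.355), and Egr1 in the older cohort at -2.82 ± 0.69 (adjusted p = 0.138), which passed without 200H replicate 2, the low library at 59.8 CPM (-3.20, adjusted p = 0.0019). The difference of the 200M effect between the cohorts was likewise called for 0 of 9 members by either tool, 0 having an unadjusted p under 0.05, against 5 of 18344 genes (0.0273%). Age, breeding, library chemistry and counting changed together between the cohorts and cannot be told apart.

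The members whose pituitary levels were called had different nearest genes. Over the 22 pituitary libraries, each log2 CPM centred on the mean of its cohort, and among 11707 genes, Nr5a1 was most like Igf2 (Pearson's r = 0.933), Cers1 (0.929) and Adcyap1r1 (0.923). Six6 was most like Rnf219 (0.914), Ybx3 (0.913) and Capn8 (0.903). Lhx3 was most like Csnk1d (0.858) and also like Atp9a (0.814), and Gata2 most like Smyd4 (0.811), Rad51d (0.810) and Mapk12 (0.797). Among the members themselves, Nr5a1 ran against Six6 (r = -0.847) and Lhx3 (-0.658), Six6 and Lhx3 had r = 0.654, Pitx1 had r = 0.609 with Six6, 0.600 with Lhx3 and 0.595 with Egr1, and Isl1 had r = 0.658 with Nr0b1. These libraries share genotype groups and depth, so the values describe likeness over the same samples.

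In the hypothalamus, 0 members were called in any of the 6 genotype comparisons by edgeR or DESeq2. In each comparison 1 or 2 members had an unadjusted p under 0.05. Few of all genes were called either, with 0.02% in young 200M, 0.0202% in young 200H, 0.00622% in older 200M and 0.0% in older 200H and in 200M against 200H in both cohorts. At an unadjusted p under 0.05, those last 3 comparisons held 445 (older 200H), 682 (young 200M against 200H) and 3144 genes (older 200M against 200H). Nr5a1, which in the hypothalamus marks the ventromedial nucleus, ranged from 2.62 to 9.24 CPM in young and from 11.3 to 28.9 CPM in older libraries. Its differences from WT were 0.28 ± 0.32 (young 200M, adjusted p = 0.921) and 0.05 ± 0.27 (older 200M, adjusted p = 0.944), while the older 200H libraries were at -0.44 ± 0.14 (unadjusted p = 0.01, adjusted p = 1.0). Isl1, which arcuate neurons express, held 27.2 to 44.3 CPM in young and 23.1 to 31.0 CPM in older libraries. Egr1 ranged from 65.0 to 125 CPM in young hypothalamus, and Six6 in older hypothalamus from 5.48 to 13.0 CPM.

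Gata2 and Nr0b1 were the members with the largest differences among the tested ones of young hypothalamus. Gata2 held 1.84, 1.85, 1.02 and 2.55 CPM in WT, 2.42, 2.77, 3.95 and 3.75 CPM in 200H and 6.36, 3.53, 4.36 and 2.97 CPM in 200M. WT and 200M did not overlap, with a log2 fold change of 1.19 ± 0.38 (unadjusted p = 0.00474, adjusted p = 0.811). Older 200M held 8.68, 6.44 and 5.77 CPM of Gata2 and older WT 4.78 to 5.76 CPM (0.42 ± 0.18, adjusted p = 0.261). Nr0b1 held 1.32, 2.11, 2.04 and 1.28 CPM in young WT and 4.30, 4.27, 4.56 and 3.47 CPM in 200H (1.30 ± 0.38, unadjusted p = 0.00163, adjusted p = 0.885). In the older 200H group Nr0b1 was at -0.33 ± 0.28.

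Pitx1 and Lhx3, factors of Rathke's pouch and the anterior pituitary, were close to absent from hypothalamus. Young libraries held 0 to 3.32 CPM of Pitx1 and 0 to 1.66 CPM of Lhx3, with 0 reads of Pitx1 in 2 libraries and of Lhx3 in 5, where 3 reads would have been 0.642 to 0.903 CPM. The highest library for both was 200M replicate 1, which also held the highest Six6 (23.0 CPM), Isl1 (44.3 CPM) and Gata2 (6.36 CPM) and the lowest Otx1 (1.66 CPM) of young hypothalamus. It is the library that stood apart by its Cga and Tshb, and 9 anterior pituitary genes summed to 39.85 CPM there against 0 to 34.66 CPM in the other young hypothalami. Older WT held 1.39, 0.18, 0 and 1.48 CPM of Pitx1, 200H 1.62, 1.74, 0.252 and 0.0994 CPM, and 200M 1.77, 3.73 and 2.00 CPM. The 200M libraries lay above the other groups (1.69 ± 0.64, adjusted p = 0.208), and the sum of the 9 anterior pituitary genes was 20.44 to 30.57 CPM in them, 2.526 to 18.39 CPM in WT and 7.477 to 68.3 CPM in 200H, where Pitx1 reached 1.74 CPM. The part of pituitary tissue in these values was not tested.

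**Figure D4:**
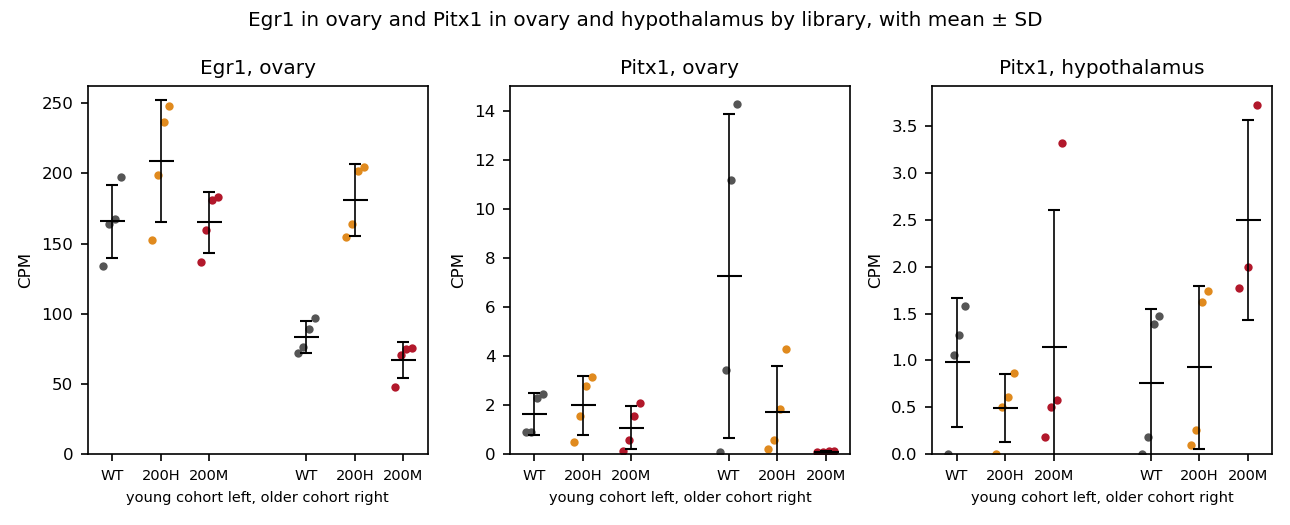
Levels in CPM of members in hypothalamus and ovary by genotype (points, single libraries; bars, mean ± SD), young cohort to the left and older cohort to the right of each panel. Ovarian Egr1 is higher in the 4 older 200H libraries (154 to 204 CPM) than in the 200M libraries (47.9 to 75.2 CPM), and Pitx1 spreads from 0.0882 to 14.3 CPM among older WT ovaries.

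In the ovary, Nr5a1 is a main factor of steroid-producing granulosa and theca cells, and here it did not pass in any comparison. Young libraries of all genotypes held 62.5 to 98.1 CPM and older ones 383 to 885 CPM. The 200M difference was 0.02 ± 0.09 in young (adjusted p = 0.957) and 0.24 ± 0.23 in older ovary (adjusted p = 0.621). Nr0b1, which opposes SF1 there, held 12.1 to 27.6 CPM in young and 8.89 to 20.7 CPM in older ovaries, with -0.05 ± 0.19 (adjusted p = 0.943) and 0.46 ± 0.25 (adjusted p = 0.394) in 200M. In young ovary edgeR and DESeq2 called 0 of 7 members in 200M (2.58% of all genes called by edgeR, 0 members with an unadjusted p under 0.05), 0 of 7 in 200H (0.0051%, 1 with an unadjusted p under 0.05) and 0 of 6 in 200M against 200H (0.0% of genes called and 648 with an unadjusted p under 0.05).

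Egr1 was the member that differed in older ovary, where it is part of the ovulatory response to LH. WT held 88.8, 97.0, 72.3 and 76.4 CPM, 200H 164, 204, 202 and 154 CPM, and 200M 75.2, 75.0, 47.9 and 70.5 CPM. The 200H libraries stood apart above both other groups, while WT and 200M overlapped. The log2 difference of 200M from 200H was -1.45 ± 0.16 (adjusted p = 0.00543), and Egr1 was the 1 member called of 4 tested, against 1.61% of 17855 genes. Against WT, 200H was at 1.13 ± 0.12 with an unadjusted p of 8.17e-06 and an adjusted p of 0.144, in a comparison where edgeR called 0 of 17605 genes and 1160 had an unadjusted p under 0.05. DESeq2 called this change (adjusted p = 1.52e-11). In 200M against WT Egr1 was at -0.32 ± 0.16 (adjusted p = 0.361), and 0 of 4 members were called against 2.71% of genes.

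Of the other immediate early genes, some differed between the mutant genotypes in older ovary. Of 15 tested in 200M against 200H, 3 fell, Dusp1 (-2.54), Junb (-1.09) and Nr4a1 (-2.83 on the log2 scale, adjusted p = 0.000875, 0.0207 and 0.00635), and the median of the list was -1.09. In 200H against WT edgeR and DESeq2 called 0 of 15, with an unadjusted p under 0.05 for Btg2, Fos and Ier2 in edgeR (median 0.63), and their summed levels overlapped, at 1040 to 1853 CPM in WT and 1422 to 1639 CPM in 200H. In 200M against WT 1 of 15 fell, Egr3 (median -0.79), with a sum of 634 to 924.2 CPM in 200M. The shares of all genes called were 1.61% in 200M against 200H and 2.71% in 200M against WT. In young ovary Egr1 was at 0.35 ± 0.15 in 200H (adjusted p = 0.702) and -0.35 ± 0.15 in 200M against 200H (adjusted p = 0.999). The sign of both was that of the older cohort, without passing the test.

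Pitx1 was very uneven in older ovary. WT held 0.0882, 3.42, 14.3 and 11.2 CPM, 200H 0.556, 0.191, 1.85 and 4.30 CPM, and 200M 0.112, 0.121, 0.0799 and 0.0765 CPM. The 4 libraries of 200M were all low, and WT replicate 1 was as low as they were. In 200M against WT the filter on low counts left it untested, and DESeq2 and the fit without a filter called it. In 200H against WT it was tested and did not pass (-1.99 ± 1.11, adjusted p = 0.764). Beside it, Star, the cholesterol carrier of steroid-producing cells, held 546, 3152, 3140 and 895 CPM in WT and 66.2 to 214 CPM in 200M. Ptgfr, a luteal receptor, held 291 to 1658 CPM in WT and 3.52 to 6.73 CPM in 200M. These were the only 2 called of 17 ovarian genes tested in older 200M against WT. The other 15 were not called, the list median was -0.32, and 2.71% of all genes were called. Gata2 in older ovary was highest in 200M replicate 3 (30.7 CPM) and 200H replicate 4 (21.9 CPM). These were also the libraries with high Ovgp1 (2715 and 2861 CPM), an oviduct gene, and Pax8 (67.0 and 41.2 CPM). Six6 had 0 reads in 11 of 12 older ovaries, where 3 reads would have been 0.205 to 0.376 CPM.

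Whether the 200M difference was itself unlike between tissues was tested in a fit with both tissues. That fit took libraries of different tissues as independent, since the labels do not say which came from the same animal. For Nr5a1 the pituitary effect exceeded that in ovary by 0.85 ± 0.16 in the young cohort (adjusted p = 0.00153), 1 of 9 members called against 10.1% of genes. The older value was 0.70 ± 0.30 (adjusted p = 0.184). Against hypothalamus it was 0.58 ± 0.33 in young (adjusted p = 0.307) and 0.88 ± 0.33 in older mice (adjusted p = 0.0736). The older hypothalamus value did not pass by edgeR as run, but passed under DESeq2 (adjusted p = 0.046), in edgeR without a filter (5.67e-05), without pituitary WT replicate 4 (adjusted p = 0.0494) and without hypothalamus 200M replicate 2, the library at 28.9 CPM (1.39, adjusted p = 0.000865), and the older ovary value without ovary 200M replicate 2 (0.95, adjusted p = 0.0305).

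Six6 did not pass the test of a difference between tissues. Pituitary minus hypothalamus was -0.36 ± 0.28 in young (adjusted p = 0.508) and -0.56 ± 0.26 in older mice (adjusted p = 0.15). Of 9 members, 0 were called in young pituitary minus hypothalamus by edgeR or DESeq2, 2 having an unadjusted p under 0.05 (10.5% of genes called). Lhx3 is not read there, since young hypothalamus held 0 to 6 reads of it and it was too low to be tested in that tissue alone. In older pituitary minus hypothalamus edgeR, as run, called Pitx1 alone, and Lhx3 (-0.88 ± 0.29, adjusted p = 0.0596) passed without hypothalamus WT replicate 4 (0.0437) or pituitary WT replicate 1 (0.0472). Pitx1 was at -1.87 ± 0.58 (adjusted p = 0.033, 1 of 9 members against 17.5% of genes). It was also the 1 of 8 members called in pituitary minus ovary, against 5.77%, but with 1 read in each 200M ovary it was not tested in older ovary alone and passed the filter there through its pituitary counts, so no tissue difference is read from that call. The hypothalamus value was lost under DESeq2 (adjusted p = 0.146), without hypothalamus 200M replicate 2 or WT replicate 2 or 3 and without pituitary 200M replicate 2 or 3 or WT replicate 2 (0.0501 to 0.141), and it rests on the low and uneven Pitx1 values of hypothalamus given above.

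In WT mice the members had distinct tissue orders. Levels per length are given as CPM per kilobase of exon (mean ± SD), each scaled within its tissue and cohort. In young pituitary, Egr1 stood highest at 113.2 ± 111.4, followed by Six6 at 48.36 ± 4.50, Pitx1 at 16.28 ± 0.905 and Lhx3 at 11.42 ± 1.99. Isl1 (3.33 ± 0.316), Nr0b1 (2.20 ± 0.616), Nr5a1 (2.15 ± 0.308) and Gata2 (2.14 ± 0.614) came next and Otx1 (0.244 ± 0.0457) last. The levels of Nr0b1, Nr5a1 and Gata2 differed by less than their spread, and Egr1 and Six6 cannot be ordered given the spread of Egr1.

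**Figure D5:**
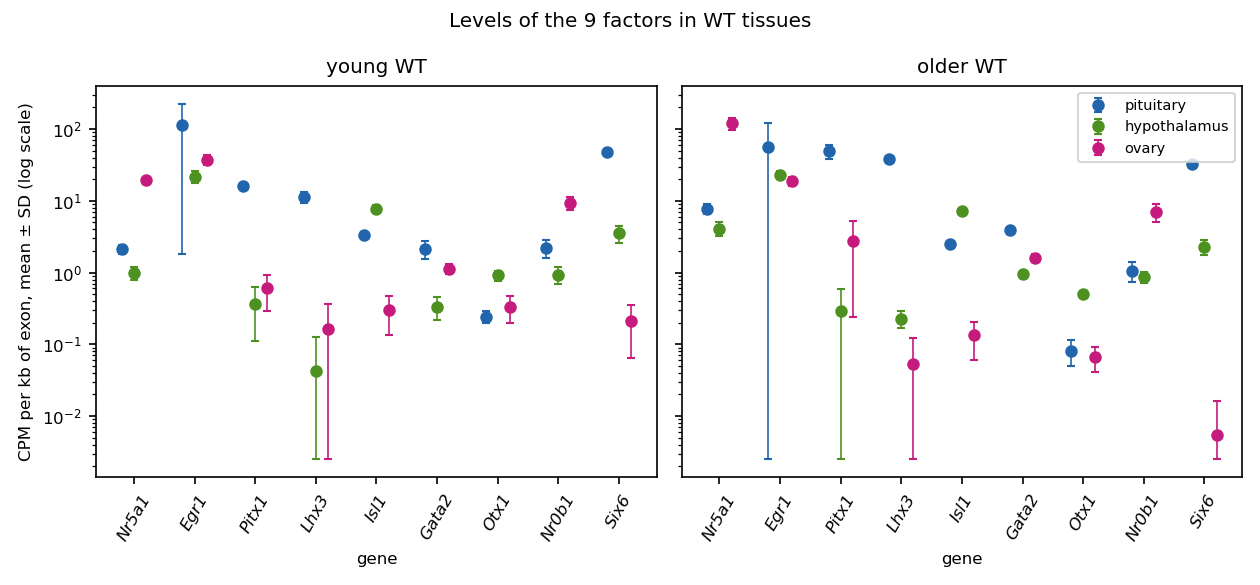
Levels of the 9 members in WT tissues as CPM per kilobase of exon on a log axis (points, means; bars, SD, with lower bars that would reach 0 ending near the axis floor), young and older cohorts in separate panels. Six6, Pitx1 and Lhx3 are highest in pituitary, Nr5a1 and Nr0b1 in ovary, and Isl1 and Otx1 in hypothalamus in both cohorts.

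Nr5a1 and Nr0b1, the SF1 gene and its repressor, were highest in ovary. Nr5a1 stood at 19.56 ± 1.99 CPM per kilobase in young ovary, 2.15 ± 0.308 in pituitary and 0.982 ± 0.199 in hypothalamus. Ovary exceeded pituitary by 3.03 ± 0.12 (log2, adjusted p = 4.85e-12), and pituitary exceeded hypothalamus by 1.05 ± 0.24 (adjusted p = 0.000422). Nr0b1 followed the same order at 9.35 ± 1.89, 2.20 ± 0.616 and 0.933 ± 0.250, its pituitary excess over hypothalamus of 1.16 ± 0.36 (adjusted p = 0.00594) lying at the threshold without pituitary replicate 2 (0.92, adjusted p = 0.0501). In the older cohort Nr5a1 was at 120.3 ± 23.1, 7.76 ± 1.20 and 4.10 ± 0.882, and its pituitary excess over hypothalamus was 1.04 ± 0.15, while Nr0b1 did not pass there (0.34 ± 0.29, adjusted p = 0.297).

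The pituitary homeobox factors were set apart by far larger differences. Six6 exceeded hypothalamus by 3.72 ± 0.12 and fell by 8.08 ± 0.19 from pituitary to ovary, at 48.36 ± 4.50, 3.503 ± 0.926 and 0.211 ± 0.146 CPM per kilobase in pituitary, hypothalamus and ovary. Lhx3 exceeded hypothalamus by 7.48 ± 0.16 in older mice. In young mice 3 of 4 WT hypothalami held 0 reads of Lhx3 and the other held 2, so the size of its excess is not fixed at this depth (7.85, and 10.84 without the library with reads). Pitx1 exceeded hypothalamus by 5.35 ± 0.25 and 7.49 ± 0.36. For Gata2 the excess of pituitary over hypothalamus was 2.56 ± 0.30 and 2.18 ± 0.13.

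Isl1 and Otx1 went the other way. Isl1 was lower in pituitary than in hypothalamus, with a log2 difference of -1.30 ± 0.14 in young and -1.37 ± 0.11 in older mice, and Otx1 with -1.98 ± 0.33 and -2.50 ± 0.30. For Otx1 the difference between ovary and pituitary was within its error (0.28 ± 0.41, adjusted p = 0.559). Egr1 was higher in young pituitary than in hypothalamus by 2.30 ± 0.35, and in older mice the value was 1.40 ± 0.66 (adjusted p = 0.0661), past the threshold without pituitary replicate 1 (1.80, adjusted p = 0.0039) or 4 (1.74, adjusted p = 0.0197). In all, 9 of 9 members were called in young pituitary against hypothalamus (72.2% of genes), 8 of 9 in young ovary against pituitary (68.3%), 7 of 7 tested in young ovary against hypothalamus (76.7%) and 7 of 9 in older pituitary against hypothalamus (76.8%), so most genes of these tissues differed as the members did.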

How the data were processed

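RNA-seq libraries of mouse pituitary, hypothalamus and ovary were deposited as tables of raw gene counts per library. The authors had aligned reads to mm10/GRCm38 with STAR 2.7.1a. Young libraries were ribo-depleted, stranded and paired-end, and were counted with featureCounts and GENCODE annotation. Older libraries were poly(A)-selected, unstranded and single-end, and were counted with HTSeq 0.9.1 and Ensembl annotation (pituitary, hypothalamus) or with featureCounts and GENCODE (ovary). The authors' own DESeq2 columns (1.18 and 1.38.3: fold changes, p-values, means) were not used, among 141 columns left out. The young pituitary tables hold a WT column whose replicate number no sample of the group has. It was used as a WT library without a number.

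Counts as deposited were tested with edgeR 4.0.16 (limma 3.58.1, R 4.3.3): TMM scaling, filterByExpr, the quasi-likelihood F test and Benjamini-Hochberg adjustment over all genes tested, called at an adjusted p under 0.05. Each pair of genotypes was tested within its tissue and cohort, in 18 comparisons, with 5 interaction tests between tissues or cohorts and 4 tests between WT tissues. The tests between tissues, as run, held no term for animals that tissues may share. The SE is the log2 fold change divided by the root of F. CPM were scaled over the libraries of a tissue and cohort, and log2 CPM took a prior count of 1. Counting of 3 reads was used as the limit beside 0. Alternatives were DESeq2 1.42.0, its size factors within edgeR, no filter, all 3 genotypes in a joint fit, the replicate number as a block, and leaving out each library. On simulated counts for young pituitary (17861 genes), 82.7% of 200 genes changed 2-fold were recovered, and for the interaction of young pituitary and ovary (21377 genes) 40.6%. No pair of libraries in a group was a duplicate (lowest chi-square per degree of freedom 1.886 over 99 pairs). Correlations over libraries were tested by permutation, two-sided. Python 3.11.15, pandas 2.3.3, numpy 2.4.6 and matplotlib 3.10.9 were used.

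The members and the gene lists were chosen with earlier results of these data known. All 9 members are named throughout, Lhb, Fshb, Cga and Gnrhr with any pituitary result, up to 5 genes of a list with the smallest of their larger adjusted p in young and older 200M pituitary among those called in both, and the 3 genes most correlated with each member called in pituitary (mean of at least 50 counts). Called list genes given by name in a count, and Foxl2, Tbx19, Fos, Ier2, Dusp1, Junb, Nr4a1, Star, Ptgfr, Ovgp1 and Pax8, were named after their values were seen. Some genes that this rule or a count would name are not reported here. Sequences came from the RefSeq tables for GRCm38, with no promoter row for Nr5a1, Egr1, Pitx1 and Otx1.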

Additional observations from a re-analysis of the deposited data

Results flagged for a closer look

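Of 98 groups of 4 libraries in which a member's level was checked, 4 held a library whose gap to its nearest neighbour was too large a share of the group's range by Dixon's test at the 95% level, which chance alone flags in about 1 group of 20. In young hypothalamus, Egr1 stood at 65.02 CPM in 200H replicate 3, with the other 3 libraries at 118.1 to 123.7 CPM. In the same tissue it stood at 125.1 CPM in 200M replicate 2, the others being at 81.77 to 85.5 CPM. Gata2 was at 7.616 CPM in young ovary 200H replicate 2 and at 6.285 to 6.485 CPM in the rest of that group. In older pituitary Gata2 was at 19.04 CPM in WT replicate 1 and at 22.04 to 22.64 CPM in the other WT libraries.

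By edgeR's test of the interaction, the 200M effect passed as different between tissues for 2 members. For Nr5a1 in the young cohort pituitary exceeded ovary by 0.85 on the log2 scale (adjusted p = 0.00153). For Pitx1 in the older cohort pituitary minus hypothalamus was -1.87 (adjusted p = 0.033) and pituitary minus ovary 5.88 (adjusted p = 0.0199). Pitx1 was low and uneven in hypothalamus, and with 1 read in each 200M ovary it was too low to be tested in ovary alone, so the ovary value is no usable measure of a tissue difference.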

How the results depend on the processing

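No called value of a member changed sign under any alternative. Nr5a1 in young 200M and in both older mutants, and Six6 in both young mutants and older 200M, stayed called under all alternatives. Without a filter on low counts, edgeR's estimate of the spread fell (the SE of Egr1 in young 200M pituitary from 0.60 to 0.0679), and the number of called members went from 2 to 4 in young pituitary 200H, from 0 to 1 in 200M against 200H of either pituitary cohort, older hypothalamus 200M, older ovary 200M, older ovary 200H and the pituitary effect in older minus young, from 0 to 2 in older hypothalamus 200M against 200H and young pituitary minus hypothalamus, from 1 to 4 in older pituitary minus hypothalamus, and from 1 to 2 in young pituitary minus ovary. Also without a filter, Egr1 was added in young pituitary 200M and older pituitary 200H. In older pituitary 200M, Egr1 and Lhx3 were added and Gata2 was lost. With 3 genotypes in a joint fit the count went from 2 to 4 in young pituitary 200H and from 0 to 1 in older ovary 200M, and Lhx3 was added in older pituitary 200M. DESeq2 called 1 member in older ovary 200M (Pitx1), 1 in older ovary 200H (Egr1) and 2 in older ovary 200M against 200H.

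Leaving out single libraries gave 1 to 3 called members in young and in older pituitary 200H, 0 to 1 in older pituitary 200M against 200H and older ovary 200M, 0 to 2 in older pituitary minus hypothalamus, 1 to 2 in older and young pituitary minus ovary, and 0 to 1 in young pituitary minus hypothalamus. In young pituitary 200M against WT it added Egr1, Lhx3 or Gata2, depending on the library. In older pituitary 200M against WT it lost Gata2 or added Egr1 and Lhx3.

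Libraries of different genotypes with the same number did not deviate together (64 correlations from -0.659 to 0.4464, with all over 0.1 in 0 of 18 genotype pairs), so they were not treated as paired. With the replicate number as a block, 4 members were called in young pituitary 200H (Egr1, Lhx3, Nr5a1 and Six6). Egr1 in young 200M was at -1.82 (adjusted p = 5.45e-08). In both fits the unnumbered WT library and mutant replicates 3 and 4 drop out. The genotype difference there rests on replicates 1 and 2 of each group, so no weight is put on these calls.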
